A study of Mus musculus with 10 samples.

Results

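Epithelial, epithelial-to-mesenchymal transition (EMT) and migration genes were examined for binding sites of the transcription factor OTX2 before and after the formation of definitive endoderm. The set had 10 members of the 21900 protein-coding genes with a position in the RefSeq table for GRCm38.p6, the assembly behind mm10. They were the adhesion genes Epcam, Cdh1 and Cdh2, the EMT transcription factors Snai1, Snai2, Zeb1 and Zeb2, and the migration genes Cxcl12, Cxcr4 and Kit. Members were chosen by symbol, and a peak was counted for a gene when its centre lay within 50 kb of the gene or inside it. All 10 symbols were found, and none was removed by a filter.

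OTX2 carrying an HA epitope was mapped by CUT&RUN, in which an antibody directs a nuclease to its target so that nearby DNA is released and sequenced. The tagged line, 7H OTX2-dTAG-EGFP on a BL6/129 hybrid background, was profiled as epiblast stem cells (EpiSCs; 2 HA samples) and as definitive endoderm (DE; 2 HA samples). EpiSCs, a culture model of the postimplantation epiblast, were grown with NVP (175 nM), FGF2 (12.5 ng/ml) and Activin A (20 ng/ml). For DE, CHIR (3 µM) and Activin A (40 ng/ml) were given over 16 h, then LDN (100 nM) and Activin A (100 ng/ml) over 24 h, and live cells were sorted. Background came from 3 IgG samples of tagged EpiSCs and from 1 HA sample of DE made from the untagged parental line 5.8. The series also has 1 IgG sample of tagged DE and 1 of parental DE. No peak list of these was used, so DE peaks were not set against IgG of DE. All of these cells are cultured, the tag is on OTX2 in 1 line, and no degrader of the dTAG is listed for any sample. Each state has 1 HA peak list over both replicates, so the values below have no replicate spread and no test between the states was possible. The lists hold positions only, without height or read depth, and peak width was the only measure of a peak. The identity of the cells was not checked against marker genes, as no expression values were used here.

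During gastrulation, cells of the epithelial epiblast loosen their junctions, pass through the primitive streak and move out as mesendoderm, after which endoderm cells re-form an epithelium. E-cadherin and EpCAM hold epithelial cells together, N-cadherin is the cadherin of mesodermal and neural tissue, and the SNAIL and ZEB zinc-finger proteins repress epithelial genes such as Cdh1. The chemokine receptor CXCR4, its ligand CXCL12 and the receptor tyrosine kinase KIT guide migrating cells, and CXCR4 and KIT are also surface markers used to sort DE.

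At 3 members a DE peak lay within the 250 bases before an annotated start that the RefSeq promoter table (GRCm38.p6) holds. These stretches are shown because Epcam, Snai1 and Kit are the only members whose promoter windows in that table overlap a peak. All 3 genes are on the plus strand, sequences run 5′ to 3′ up to the base before the start, and capitals mark the bases inside the DE peak.
Epcam, chr17:87635729-87635978: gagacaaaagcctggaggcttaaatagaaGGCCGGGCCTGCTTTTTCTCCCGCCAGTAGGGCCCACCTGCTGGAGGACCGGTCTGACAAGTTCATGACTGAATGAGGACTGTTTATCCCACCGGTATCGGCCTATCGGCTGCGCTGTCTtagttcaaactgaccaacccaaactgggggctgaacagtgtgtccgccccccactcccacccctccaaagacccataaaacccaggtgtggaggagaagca
Snai1, chr2:167537945-167538194: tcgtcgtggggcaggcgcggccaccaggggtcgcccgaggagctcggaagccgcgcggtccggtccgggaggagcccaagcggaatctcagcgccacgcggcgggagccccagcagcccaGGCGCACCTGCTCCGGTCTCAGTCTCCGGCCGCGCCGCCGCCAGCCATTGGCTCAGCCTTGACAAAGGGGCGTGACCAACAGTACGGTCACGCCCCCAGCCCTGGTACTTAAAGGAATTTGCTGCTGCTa
Kit, chr5:75574737-75574986: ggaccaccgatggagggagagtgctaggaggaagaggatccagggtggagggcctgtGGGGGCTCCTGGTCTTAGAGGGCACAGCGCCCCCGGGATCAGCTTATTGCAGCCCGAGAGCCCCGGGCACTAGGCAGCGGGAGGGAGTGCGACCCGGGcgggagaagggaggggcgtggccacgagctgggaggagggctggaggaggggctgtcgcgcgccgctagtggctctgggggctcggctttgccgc

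The capitals cover 120 bases at Epcam, 129 at Snai1 and 98 at Kit. They end 102 bp before the gene start at Epcam, 2 bp before it at Snai1 and 96 bp before it at Kit. GC content of the printed stretches was 56.4% at Epcam, 70.0% at Snai1 and 70.8% at Kit, beside a median of 52.4% (quartiles 45.2 and 61.2%) over all 32851 windows of the table. The letters TAATCC, the textbook site of OTX2 and related homeodomain factors, were searched on both strands of the whole windows, 250 bases before to 50 after the start. They were in none of the 10 windows of the 6 members with an entry (Epcam, Snai1, Zeb2, Cxcr4, Cxcl12 and Kit). Of all windows 7.06% held them, and of the 6027 windows overlapping a DE peak 7.98%. The homeodomain core TAAT was in none of the 3 printed stretches on either strand, whereas 54.9% of all windows had it in the 250 bases before the start. After the sequences had been seen, CACCTG, the E-box core recognised by SNAIL and ZEB proteins, was also searched on both strands. It was inside the capitals of Epcam (bases 64 to 69) and of Snai1 (bases 125 to 130), counted from the first printed base. A further copy at Epcam, read as CAGGTG at bases 232 to 237, lay outside the peak, and Kit had none. The letters were in 2 of the 10 windows of members (20.0%), with none at Zeb2, Cxcr4 or Cxcl12. Zeb2 and Kit have several windows each, some of them overlapping, so the 10 windows are not independent. Of all windows, 17.2% held these letters in the 250 bases before the start, and 14.7% of windows overlapping a DE peak did so.

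Across the set, 67 DE peaks and 6 EpiSC peaks were found. Every member had at least 1 DE peak, as had 82.8% of all protein-coding genes, and 3 members (Epcam, Cdh1 and Zeb2) had an EpiSC peak, against 40.8% of all genes. The other 7 had DE peaks and no EpiSC peak, a pattern seen in 42.3% of all genes. All 10 had more DE than EpiSC peaks, as had 79.2% of all genes, and the DE list itself is longer, with 42711 peaks against 6319. The DE to EpiSC ratio was 11.2 near the members, where it rests on 6 EpiSC peaks, and 6.76 in the whole lists. The latter compares list lengths and not peaks near genes. Counted within 50 kb of every protein-coding gene, there were 83655 DE and 18654 EpiSC pairs of gene and peak. With the DE list cut to its 6319 widest peaks, so that both lists were equally long, 8 DE peaks remained, at 4 members (34.7% of all genes had one). In that setting 3 members had more DE than EpiSC peaks (14.5% of all genes) and 3, Epcam, Cdh1 and Zeb2, had more EpiSC than DE peaks (27.9% of all genes). The direction at these 3 members thus depended on which DE peaks were kept. No EpiSC IgG peak and no peak of the parental HA list lay within 50 kb of any member. Those lists are short (202, 149 and 200 IgG peaks, and 14 parental peaks), and 149 intervals are identical in IgG replicates 2 and 3.

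**Figure D1:**
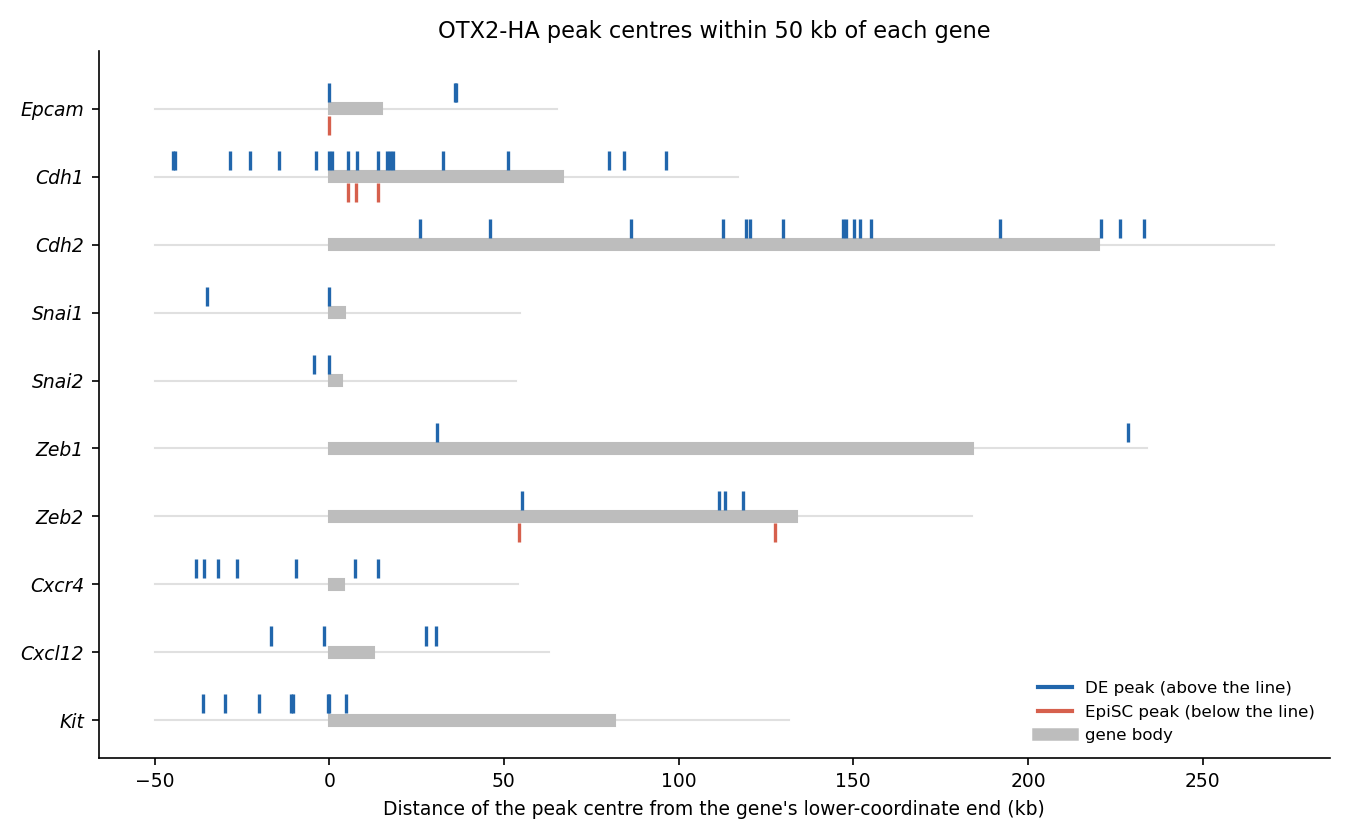
Positions of all 67 DE peaks (blue, above the line) and 6 EpiSC peaks (orange, below the line) within 50 kb of the 10 genes; the x axis is the distance of the peak centre from the gene's lower-coordinate end in kb, and grey bars are gene bodies. EpiSC peaks are at Epcam, Cdh1 and Zeb2, and the densest rows of DE peaks are at Cdh1 (19) and Cdh2 (16).

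Peak number ranged among the members from 2 DE peaks at Snai1, Snai2 and Zeb1 to 19 at Cdh1. The median over members was 4 DE peaks, and over all protein-coding genes 3 (quartiles 1 and 6). Because a long gene has a larger window, counts were also expressed per 100 kb of window. On that scale the order was Cdh1 with 11.4 DE peaks, Cxcr4 with 6.72, Cdh2 with 4.99, Kit with 4.40, Cxcl12 with 3.55, Epcam with 2.61, Snai2 with 1.93, Snai1 with 1.91, Zeb2 with 1.71 and Zeb1 with 0.704. The median density was 3.08 over members and 2.24 over all protein-coding genes. Without replicates, neighbours in this order cannot be separated. With the 50 kb window the 4 EMT transcription factors had the lowest densities, all below the median of all genes, but this order changed with the window. With 10 kb, Snai2 had 8.49 and Snai1 4.06 DE peaks per 100 kb, above Epcam with 2.85. Zeb2 had 2.60, and these 3 were above the median of all genes, 2.16. With 25 kb, Snai2 (3.74) and Zeb2 (2.17) were above that median, 1.96. With 100 kb, Snai1 had 2.93 and Zeb2 2.70, again above Epcam with 2.32. Cdh1 was the highest and Zeb1 the lowest of the 10 with each of the windows tried (10, 25, 50 and 100 kb).

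**Figure D2:**
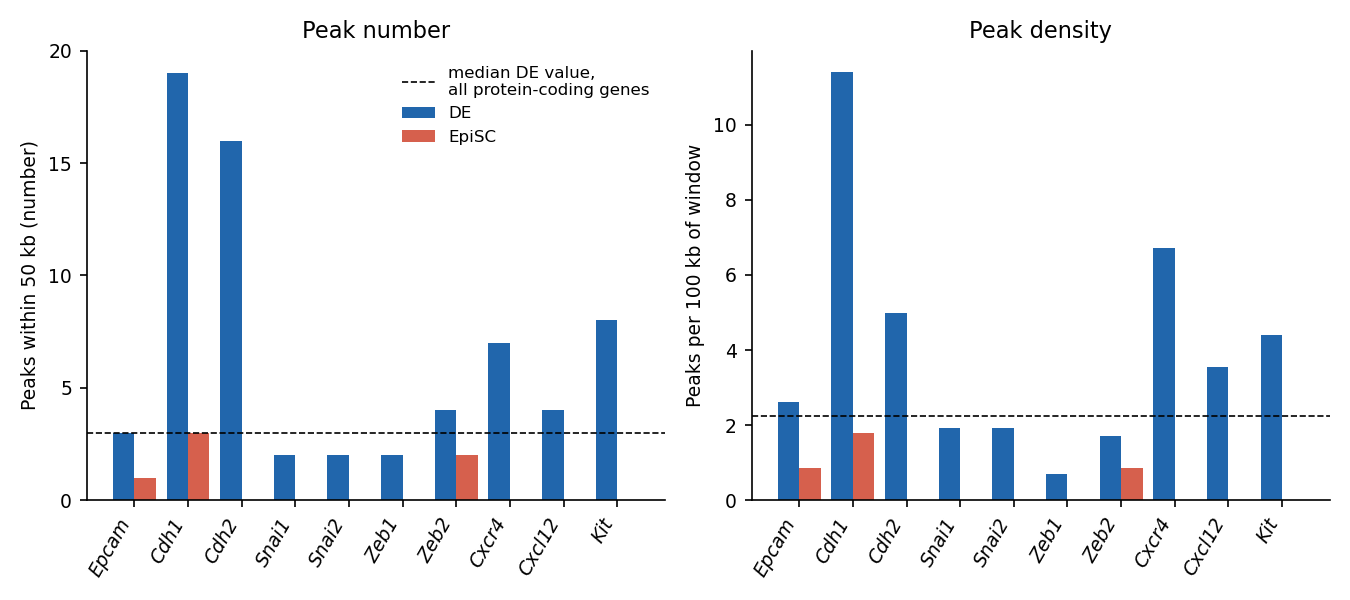
Number of peaks within 50 kb (left axis) and peaks per 100 kb of window (right panel) for each gene, DE in blue and EpiSC in orange; the dashed line is the median DE value over all protein-coding genes. With this window Snai1, Snai2, Zeb1 and Zeb2 lie below the line for density, at 0.704 to 1.93 DE peaks per 100 kb (with 10 kb, Snai1, Snai2 and Zeb2 exceed the median of all genes), and Cdh1 is the highest at 11.4.

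Of the adhesion genes, Cdh1 (E-cadherin; chromosome 8, 106603350 to 106670247) had the most peaks in both states. Its 19 DE peaks exceeded the count of 99.6% of protein-coding genes, and its density exceeded that of 99.2%. Of these peaks 9 lay in the gene body, 7 on the lower-coordinate side and 3 on the higher-coordinate side. The 3 EpiSC peaks were all inside the gene and all overlapped a DE peak, so every EpiSC site of Cdh1 was also in the DE list. They lay at 106608543 to 106608629 (87 bp wide; DE peak 209 bp), 106611077 to 106611184 (108 bp; DE 112 bp) and 106617305 to 106617453 (149 bp; DE 198 bp). In each pair the DE peak was the wider one. Over the whole lists, shared peaks likewise had a larger median width in DE (224 bp) than in EpiSC (147 bp). Their centres were 5236, 7780 and 14029 bp from the lower-coordinate end, and the overlaps were 87, 81 and 140 bp.

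The remaining 16 DE peaks of Cdh1 had no EpiSC counterpart. The peak at 106603242 to 106603342 (101 bp) ended 8 bp before the lower-coordinate end of the gene, and the one at 106604077 to 106604213 (137 bp) lay 795 bp inside it. No EpiSC peak lay within 1 kb of that end. Next to the third shared site were 3 DE-only peaks between 106619752 and 106621852, giving 4 DE peak centres in a span of 10 kb. Such a span was found at 2 members, Cdh1 and Cdh2, and at 6.92% of all protein-coding genes. The widest DE peak at Cdh1 (365 bp, 106558882 to 106559246) was 44286 bp from the lower-coordinate end, on the side of the neighbouring P-cadherin gene Cdh3 (106510852 to 106556911). Of the DE peaks in the Cdh1 window, 8 also fall in the 50 kb window of Cdh3, so the window alone does not tell the 2 genes apart for these. Among the 8 are the peak ending 8 bp before Cdh1 and the one 795 bp inside it, which lie closer to Cdh1 than to Cdh3. Cdh1 is named as the nearest gene in 10 DE rows and 3 EpiSC rows of the authors' deposited table.

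Cdh2 (N-cadherin) spans chromosome 18 from 16588877 to 16809246. No EpiSC peak was found near it, whereas 16 DE peaks were. The nearest EpiSC peak to the gene was 774 kb away. Inside the gene were 13 of the 16 peaks, and the other 3 lay past its higher-coordinate end. A group of 5 peaks stood between 16735864 and 16743961, with widths of 203, 285, 90, 197 and 160 bp. The widest was 365 bp at 16709027 to 16709391, and the closest to a gene end was 81 bp wide at 16809781 to 16809861, with its centre 575 bp past the higher-coordinate end. Although the count exceeded that of 99.2% of protein-coding genes, the density exceeded that of 83.8%, as the gene is long (220370 bp). The authors' deposited table gives 5 of the 16 to Cdh2, 9 to Gm15485 and 2 to Gm15328.

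Epcam, which encodes the epithelial adhesion molecule EpCAM, spans chromosome 17 from 87635979 to 87651127. It had a single EpiSC peak and 3 DE peaks, and the promoter held a peak in both lists. The EpiSC peak at 87635755 to 87635945 was 191 bp wide and contained the whole 120 bp DE peak at 87635758 to 87635877, the stretch in capitals in the Epcam sequence. Epcam was the only member whose EpiSC peak was wider than the DE peak it overlapped, and the only one with an EpiSC peak within 1 kb of a gene end (11.1% of all genes). The other 2 DE peaks, 78 and 214 bp wide, lay 20897 and 21256 bp past the gene, so that within 10 kb Epcam had 1 DE and 1 EpiSC peak. The authors' deposited table gives Epcam 2 further DE rows 64198 and 68580 bp from it.

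**Figure D3:**
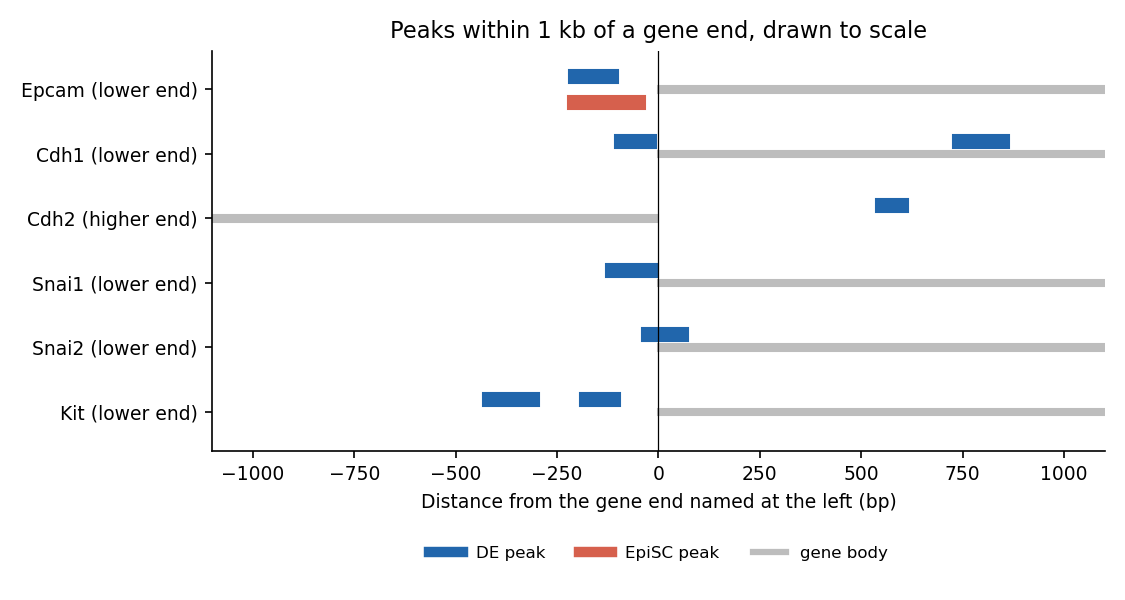
Peaks with a centre within 1 kb of a gene end, drawn to scale; the x axis is the distance in bp from the end named at the left, DE peaks are blue, EpiSC peaks orange and gene bodies grey. Of the 6 genes shown, Epcam alone has an EpiSC peak, and the Snai2 peak spans the end of the gene.

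The EMT transcription factors had 2 to 4 DE peaks each. Snai1 (SNAIL), on chromosome 2 from 167538195 to 167542814, showed 2 peaks, both in DE. One was the promoter peak of 129 bp (167538065 to 167538193) shown in capitals, with its centre 66 bp before the start. The other, 219 bp wide at 167503213 to 167503431, was 34873 bp before the start and within Rnf114, the gene named for it in the authors' deposited table. Snai2 (SLUG), on chromosome 16 from 14705852 to 14709395, likewise showed 2 peaks in DE alone. One of 112 bp (14705812 to 14705923) spanned the lower-coordinate end of the gene, and one of 130 bp (14701473 to 14701602) lay 4314 bp outside it. Snai1 and Snai2 thus each had a DE peak at a gene end, as had 32.0% of all protein-coding genes within 1 kb. The nearest EpiSC peaks were 119 kb from Snai1 and 546 kb from Snai2.

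The ZEB genes had no peak within 1 kb of either end in either list. At Zeb1 (chromosome 18, 5591327 to 5775468) both peaks were in DE, 79 bp wide at 5622210 to 5622288 inside the gene and 178 bp wide at 5819759 to 5819936, 44379 bp past it. Its density exceeded that of 20.4% of protein-coding genes, the lowest rank in the set, and its nearest EpiSC peak was 361 kb away. Zeb2 (chromosome 2, 44983512 to 45117442, minus strand) had 4 DE and 2 EpiSC peaks, all inside the gene. None of them overlapped a peak of the other state, and Zeb2 was the only member with EpiSC-only peaks. The EpiSC peaks were 91 bp wide at 45037671 to 45037761 and 108 bp at 45111136 to 45111243. The latter was 6252 bp after the outermost start and over the lower-coordinate end of the long non-coding RNA gene Zeb2os (45111138 to 45114087). RefSeq also gives Zeb2 starts inside the gene, and this peak lay on the 5′ side of the promoter window at 45110228 to 45110527, without overlapping it. The first EpiSC peak was separated by 785 bp from a DE peak of 70 bp (45038547 to 45038616), and the second by 9199 bp from a DE peak of 134 bp (45101803 to 45101936). The widest DE peak, 206 bp at 45095046 to 45095251, was 22293 bp after the outermost start.

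Among the migration genes, the receptor gene Cxcr4 (chromosome 1, 128588199 to 128592299, minus strand) showed 7 peaks in DE and none in EpiSC. It had the widest peak of the set, 486 bp at 128561590 to 128562075, wider than 98.7% of the DE list. This peak was 26366 bp past the 3′ end of the gene. The next 3 in that direction were 328, 256 and 307 bp wide, at 31907, 35965 and 38244 bp from the gene. Those 4 were all wider than the upper quartile of the DE list (209 bp), whereas the 3 peaks closest to Cxcr4 were 88, 95 and 141 bp wide. On the 5′ side the closest peak centre was 3318 bp before the start. The authors' deposited table names Cxcr4 for 3 further DE rows at 60823 to 62554 bp before the start, 345, 309 and 443 bp wide, and with a window of 100 kb the gene had 12 DE peaks. Of the peaks in the 50 kb window that table gives 3 to Gm6170. The nearest EpiSC peak was 344 kb from the gene.

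Cxcl12, the ligand of CXCR4 (chromosome 6, 117168535 to 117181368, plus strand), showed 4 peaks in DE and none in EpiSC. They were 124, 132, 91 and 144 bp wide, beside the DE list median of 138 bp, and none was inside the gene. The closest, at 117166936 to 117167067, had its centre 1533 bp before the start, and the widest, at 117199032 to 117199175, lay 17735 bp past the gene. The nearest EpiSC peak was 1320 kb away. Within 50 kb the median width was 128 bp at Cxcl12 and 256 bp at Cxcr4, but within 25 kb Cxcl12 had 4 DE peaks with a median of 128 bp and Cxcr4 had 3 with a median of 95 bp.

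Kit (chromosome 5, 75574987 to 75656722, plus strand) showed 8 peaks in DE and none in EpiSC. Of these 7 were on the 5′ side and 1 was 4799 bp inside the gene. A pair stood before the start, 138 bp wide at 75574554 to 75574691 and 98 bp at 75574794 to 75574891, the latter shown in capitals, with centres 364 and 144 bp before it. A second pair of 301 and 216 bp stood 10966 and 10318 bp before the start, and the first of these (75563871 to 75564171) was the widest at Kit. The outermost peak, at 75538711 to 75538772, was 62 bp wide, the narrowest width in the DE list. The nearest EpiSC peak, at 75481668 to 75481916, was 93195 bp from the gene and overlapped a DE peak. Kit is named in 3 DE rows of the authors' deposited table, which gives 5 peaks of the window to Gm24502.

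**Figure D4:**
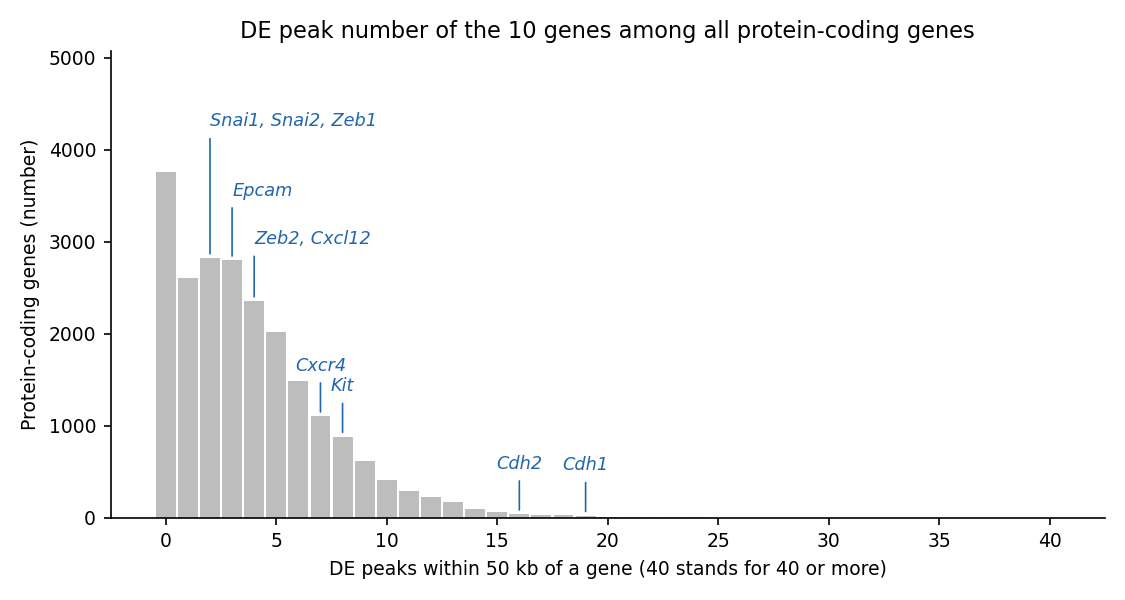
Number of protein-coding genes (y axis) by their number of DE peaks within 50 kb (x axis), with the 10 genes marked at their counts. Cdh1 (19) and Cdh2 (16) lie in the sparse right tail, and Snai1, Snai2 and Zeb1 (2 each) lie below the median of 3.

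Sharing between the states was low on the DE side. Of the 67 DE peaks near members, 4 shared 1 bp or more with an EpiSC peak (5.97%; Wilson interval at 95%, 2.35 to 14.4%), beside 11.7% of the whole DE list (11.4 to 12.0%). The interval of the members includes the value of the list. All 4 were at Cdh1 (3) and Epcam (1). In the other direction 4 of 6 EpiSC peaks were shared (66.7%, 30.0 to 90.3%), beside 78.8% of the EpiSC list. A shared DE peak was present at 2 of 10 members and at 37.1% of all protein-coding genes. These intervals cover counting error only, and neighbouring peaks of a gene are not independent.

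Peak width was compared with that of the whole lists. The 67 DE peaks had a median of 133 bp (quartiles 99.5 and 207.5 bp; range 62 to 486 bp), against 138 bp (93 and 209 bp) in the DE list. The 6 EpiSC peaks had a median of 108 bp (range 87 to 191 bp), against 141 bp in the EpiSC list. The 4 shared DE peaks were 112 to 209 bp wide with a median of 159 bp, all below the median of shared peaks in the whole DE list, 224 bp. Of the 8 DE peaks near members that are among the 6319 widest, 3 were at Cxcr4, 3 at Cdh2, 1 at Cdh1 and 1 at Kit. None of the shared DE peaks was among them.

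**Figure D5:**
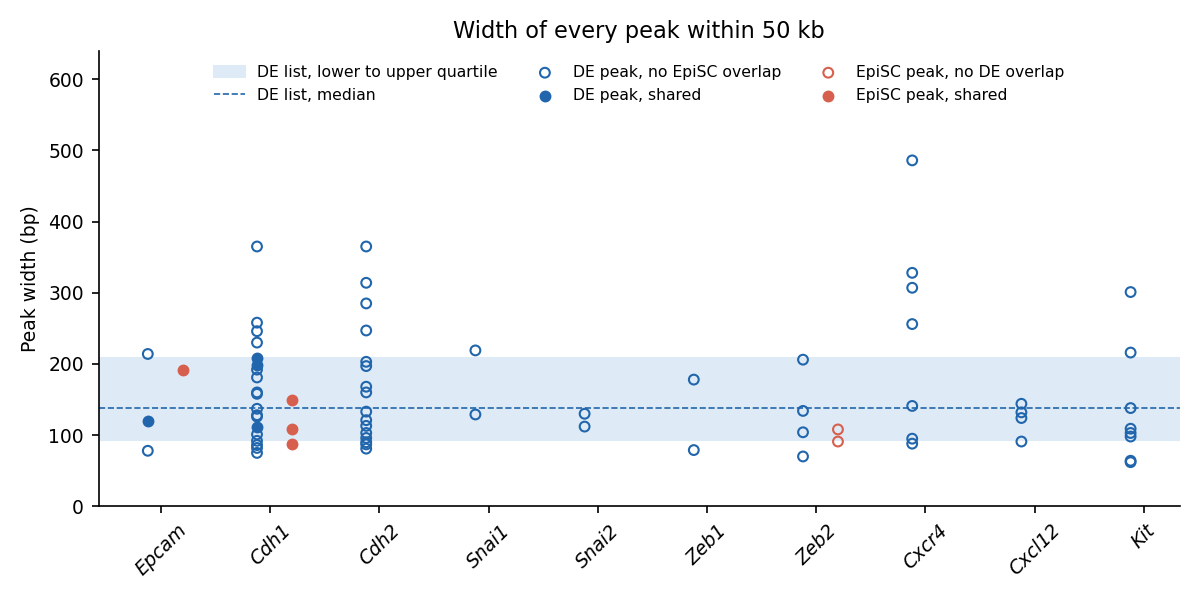
Width in bp (y axis) of every peak within 50 kb of each gene; circles are single peaks, DE in blue and EpiSC in orange, filled where the peak overlaps one of the other state, and the band and dashed line are the quartiles and median of the DE list. The widest peak is at Cxcr4 (486 bp), followed by peaks of 365 bp at Cdh1 and Cdh2, and the filled circles are at Epcam and Cdh1 only.

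With regard to position, 29 of the 67 DE peaks (43.3%, 32.1 to 55.2%) and 5 of the 6 EpiSC peaks lay inside a member, with Cdh2 and Cdh1 holding 22 of the 29. Over all protein-coding genes, peaks were counted in the same way, each peak once for every gene within 50 kb. Of these pairs of gene and peak, 24.3% in DE and 14.2% in EpiSC had the peak inside that gene. The 2 shares are not matched for gene length, and a longer gene fills more of its window. Cdh1, Cdh2, Zeb1, Zeb2 and Kit (66898 to 220370 bp) are longer than the median gene of 17146 bp, and the other members are shorter. An excess inside the members therefore cannot be read from these shares. A DE peak centre within 1 kb of a gene end was present at 6 members (Epcam, Cdh1, Cdh2, Snai1, Snai2 and Kit) and at 32.0% of all protein-coding genes. Such peaks numbered 8, as Cdh1 and Kit had 2 each. Another DE peak within 1 kb accompanied 17 of the 67 DE peaks (25.4%, 16.5 to 36.9%), beside 18.4% of the DE list. The authors' deposited table named a member in 37 DE rows and 6 EpiSC rows. All 10 members had a DE row, as had 50.4% of all genes, and 3 had an EpiSC row, as had 15.3%. Of the DE rows 32 lay within 50 kb, and the other 5 were the distant rows of Cxcr4 (3) and Epcam (2). The other 35 of the 67 window peaks were given to other genes.

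Further genes of the same processes were counted in the same way in 3 lists of 20, written from general knowledge. For comparison, 82.8% of all protein-coding genes had a DE peak and 40.8% an EpiSC peak, with a median of 3 DE peaks and 2.24 per 100 kb. All 20 epithelial genes had a DE peak and 12 an EpiSC peak, with a median of 8.5 DE peaks and 5.84 per 100 kb. The highest counts were at the polarity gene Pard3 (19 DE, 1 EpiSC) and at the keratin genes of simple epithelia, Krt18 (18 DE, 0 EpiSC) and Krt8 (16 DE, 0 EpiSC). Per 100 kb of window, Pard3, a long gene, had only 2.93 DE peaks, against 17.3 at Krt18 and 14.9 at Krt8. The windows of Krt8 and Krt18 have 14 DE peaks in common. Of the EMT and mesenchymal genes, 18 of 20 had a DE peak and 7 an EpiSC peak, with a median of 4 DE peaks and 2.99 per 100 kb. Lef1, a transcription factor of the WNT pathway, had 13 DE and 2 EpiSC peaks, the fibronectin receptor subunit gene Itga5 had 11 and 1, and the E-protein gene Tcf3 had 11 and 6. Twist1, an EMT transcription factor, and the integrin gene Itgb1 had no peak in either list. Of the migration and receptor pathway genes, all 20 had a DE peak and 14 an EpiSC peak, with a median of 5 DE peaks and 3.61 per 100 kb. Here Rhoa, a GTPase of the actin cytoskeleton, had 11 DE and 6 EpiSC peaks, the adhesion gene Flrt3 had 8 and 1, and the apelin receptor gene Aplnr had 7 and 1. No listed gene had more EpiSC than DE peaks, as was the case for 1.05% of all protein-coding genes. The DE count exceeded the EpiSC count in 20, 18 and 19 genes of these lists, beside 79.2% of all protein-coding genes.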

How the data were processed

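Peaks were deposited by the authors as start and end positions on mm10, per the submitters' processing notes, which also name Bowtie2 2.3.5.1, SAMtools 1.14, Picard 2.26.10, bedtools 2.30 and MACS2 2.2.6. Per the file names, the HA peaks were merged over 50 bp. The caller's threshold and control are not given in the sources used here. The deposited values carry no score or depth for the HA lists, and the marks for changed genes in the authors' table were not used. Labels of EpiSC HA replicate 2 and of the tagged DE IgG sample also point to DE files, which was treated as an error in the labels.

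All 42711 DE and 6319 EpiSC intervals were found in the authors' table, from which nearest genes were taken. Counting used Python 3.11.15, pandas 2.3.3, numpy 2.4.6 and scipy 1.17.1, with functions checked on simulated peaks. Gene positions came from RefSeq (GRCm38.p6), which gives no exons here and strand only through the promoter table. The 10 members and the 3 further lists were chosen with earlier results of these data known. All members were to be named, with, per further list, the 3 genes with most DE peaks (ties alphabetical) and genes with more EpiSC than DE peaks. Twist1 and Itgb1 were named after their values were seen. Peaks printed by position were the EpiSC, shared and gene-end peaks and the widest DE peak of each member; others were added after being seen.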

Additional observations from a re-analysis of the deposited data

How the results depend on the processing

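No paired analysis was possible because each state has 1 list over both HA replicates, which also means that neither could be omitted. Of 15 alternatives, 5 could only return the reported values. Under the other 10 alternatives 32 of 151 values moved by more than the limit set (1.5 times for counts, the interval or quartiles for shares and widths). Part of these 151 was fixed in advance as well. EpiSC counts cannot change when the DE list is shortened or when peaks below the narrowest EpiSC width are left out. EpiSC counts of 0 cannot fall with a smaller window. With a window of 10 kb, 42 DE peaks lay near members, and 9 of 10 members had more DE than EpiSC peaks, beside 56.6% of all protein-coding genes; the exception was Epcam, with 1 of each. With the DE list cut to its 6319 widest peaks, 8 DE peaks remained, 4 members had a DE peak (34.7% of all genes), 3 had more DE than EpiSC peaks, and the shared share fell to 0% of DE and 0% of EpiSC peaks, beside 30.2% and 30.7% of the whole lists; this choice selects on width and shortens the list by construction. With the nearest protein-coding gene by gene end in RefSeq in place of the authors' assignment, 109 DE peaks instead of 37 fell to members; gene classes, distance rule and annotation differ at once, and the cause was not tested. Of the single-member counts, 25 of 100 moved, all with a changed window or the shortened DE list. The 5 that could change nothing, and the fixed EpiSC counts among the 151 and the 100 values, tell nothing of stability. No member peak overlapped background, so leaving such peaks out, or leaving out IgG replicate 1, 2 or 3 in turn (0 overlapping peaks each time), could change nothing, and the values from the authors' table are equal by construction, as its intervals are those of the lists. Depth is unknown, so a missing EpiSC peak shows only that none was called.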

Other observations

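Several genes of the epithelial list beyond those named above had EpiSC peaks, to be read beside 80.2% of EpiSC peaks near any protein-coding gene that overlapped a DE peak. The claudin gene Cldn3 had 12 DE and 5 EpiSC peaks, with all 5 EpiSC peaks shared, and Cldn4 had 10 and 4, with all 4 shared. The windows of Cldn3 and Cldn4 have 7 DE and 3 EpiSC peaks in common. Cldn7 had 11 DE and 5 EpiSC peaks, 4 of the latter shared, the polarity gene Crb3 had 8 and 4, all 4 shared, and the splicing regulator gene Esrp2 had 6 and 3, all 3 shared. Of the other junction genes, Tjp1 had 6 DE peaks and 1 EpiSC peak, which was not shared, Ocln had 1 and 0, Cldn6 had 10 and 0, and Cdh3 had 12 and 0. Of the receptor pathway genes, Ackr3, an alternative receptor of CXCL12, had 5 DE peaks and 1 EpiSC peak, which was shared, and Kitl, the ligand of KIT, had 7 DE peaks and no EpiSC peak. These genes were picked from the lists after their values were seen.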
